A study of Mus musculus with 4 samples.

Results

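A set of 10 genes that mark fibroblasts, the matrix-producing cells of connective tissue, was followed in mouse mammary gland cells sorted 3 days after transplantation. They are Pdgfra, Thy1, Fap, Cd34, Scara5, Mfap5, Gsn, Dpt, Col14a1 and Fbln1, 10 of the 17097 genes that the arrays measured with a probe set of a single gene symbol. The set was chosen by the difference between the groups in earlier results of these same arrays, so its values in that comparison are given as a description and without a test. The group called multipotent in the labels received 10000 BC cells alone, and the control group, called unipotent, received 2000 BC cells together with 8000 LC cells. Both groups had 2 arrays, and each array used RNA from 50 sorted cells. BC and LC are commonly used for basal and luminal cells in this field, but the labels leave them unexplained, and the sources used here do not give strain, age, number of animals or which of the transplanted cells were sorted. The control thus had added LC cells as well as fewer BC cells, and the effects of these cannot be told apart. Nothing says that the arrays came from separate animals, so the spread between them, given as an SD with n = 2, may be technical.

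Fibroblasts are recognised by a combination of surface proteins and of matrix proteins that they secrete, since few single genes are restricted to them. Pdgfra is a receptor tyrosine kinase for platelet-derived growth factors, Thy1 (CD90) a protein anchored to the membrane by a lipid, Fap a membrane-bound serine protease of activated fibroblasts, Cd34 a sialomucin and Scara5 a scavenger receptor that binds ferritin. Mfap5 belongs to the elastic microfibrils, Dpt (dermatopontin) and the collagen Col14a1 attach to the surface of collagen fibrils, and Fbln1 (fibulin 1) binds fibronectin and elastic fibres. Gsn (gelsolin) severs actin filaments and also exists as a secreted form. Several are shared with other cells: Thy1 and Gsn also occur in basal mammary epithelium, and Cd34 in endothelium and blood progenitors.

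All values are log2 expression values, on which 1 unit is a 2-fold difference, and no call of detection came with them. Control replicate 2 stood apart from the other arrays. Its values had an SD of 1.44 over all probe sets, against 1.90 to 1.92 on the other arrays, and a median of 4.62 against 4.37 to 4.38. The basal keratin gene Krt5 was at 7.12 there and between 10.22 and 10.76 on the other arrays, and Trp63, the basal regulator p63, was at 5.20 there and between 8.74 and 8.81 elsewhere. Keratin genes of basal and luminal epithelium were both high on the other 3 arrays, Krt8 at 10.16 to 10.42 as well as Krt5. The members, and the relatives that differed at least 2-fold without overlap, are therefore also described against control replicate 1 alone. In a pool of 50 cells, fewer fibroblasts and less RNA per cell cannot be told apart.

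Scara5, Cd34, Thy1 and Fap, 4 of the 5 surface genes, were higher on both BC alone arrays than on either control array, by 2.255 to 2.965 on the log2 scale, and the fifth, Pdgfra, read low throughout. Scara5 had 7.38 and 8.32 in BC alone, and 4.74 and 5.03 in the control. The groups were separated by a gap of 2.35, wider than the distance of 0.94 between the BC alone arrays. The difference of the means was 2.965, or 7.81-fold, and only 2 of the 17097 genes had a larger one. Since the set was chosen on this difference, nothing is read from that rank. Cd34 had 6.72 and 7.44 in BC alone, and 4.68 and 4.19 in the control, a 6.26-fold difference. Here too the lower BC alone array lay above both controls, by 2.04. The Cd34 value on control replicate 2 was under the median of that array, 4.62. The other control values of Cd34 and Scara5 lay not far above the array medians, 4.38 and 4.62.

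Thy1 had 8.65 and 8.39 in BC alone, and 6.57 and 5.92 in the control, a difference of 2.275 or 4.84-fold. It was the surface gene with the closest agreement between the BC alone arrays, with an SD of 0.18. Fap had 5.42 and 6.83 in BC alone, and 3.83 and 3.91 in the control. The BC alone arrays were thus 1.41 apart, with an SD of 1.00, while the controls were almost equal, with an SD of 0.06. Both control values of Fap lay under the median of all probe sets on their arrays, so its 4.77-fold difference sets a higher level against one near the low end of the scale.

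Pdgfra had 4.06 and 3.57 in BC alone, and 3.58 and 3.68 in the control. The groups overlapped, and every one of these values lay under the median of all probe sets on its array. The single probe set that names Pdgfra alone therefore gave no clear signal in either group, and the fibroblast label of the set does not rest on this receptor. The low reading belongs to this probe set and does not show that the transcript was absent.

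**Figure D1:**
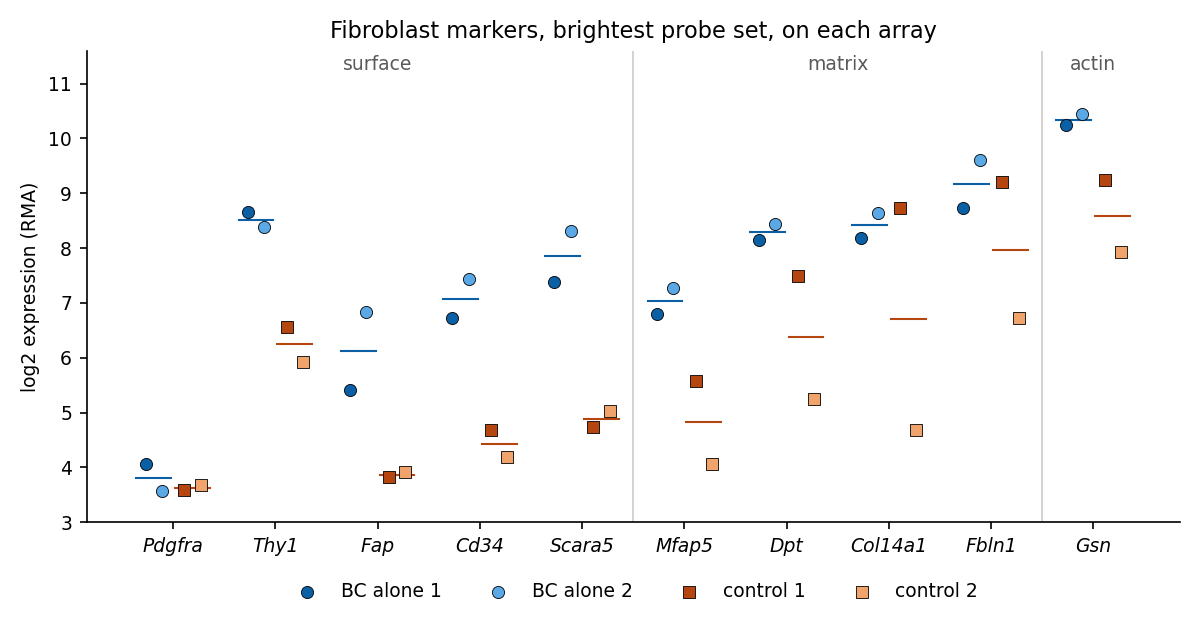
Log2 expression of the 10 genes on each of the 4 arrays, with a horizontal line at each group mean. Circles are the BC alone arrays and squares the control arrays. Both BC alone arrays lie above both controls for Thy1, Fap, Cd34, Scara5, Mfap5, Dpt and Gsn, and control replicate 2 is the lowest array for all 4 matrix genes.

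The 4 matrix genes were also higher in BC alone on average, by 1.21 to 2.21, but much of this came from control replicate 2. Mfap5 had 6.79 and 7.28 in BC alone, and 5.58 and 4.07 in the control. Its groups did not overlap, and the difference was 2.21, or 4.63-fold. Dpt had 8.15 and 8.44 in BC alone, and 7.49 and 5.25 in the control. It too was lower on both controls, yet the distance between the controls, 2.24, was larger than the difference of 1.925 between the groups. Dpt differed from control replicate 1 alone by 0.805, or 1.75-fold, which is under the 2-fold mark.

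For the remaining matrix genes the groups overlapped. Col14a1 had 8.19 and 8.64 in BC alone, and 8.74 and 4.68 in the control. Control replicate 1 was the highest of the 4 arrays and control replicate 2 by far the lowest, so the mean difference of 1.705 rested on control replicate 2. Against control replicate 1 alone Col14a1 was lower in BC alone, at -0.325. Fbln1 had 8.74 and 9.61 in BC alone, and 9.21 and 6.72 in the control. Here control replicate 1 lay between the BC alone arrays, and the difference from it was -0.035, while the mean difference over both controls was 1.21.

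Gsn, the only cytoskeletal gene of the set, had 10.24 and 10.45 in BC alone, and 9.25 and 7.93 in the control. The BC alone arrays agreed to within 0.21, and both lay above both controls. The difference was 1.755, or 3.38-fold, and 1.095 against control replicate 1 alone. With cyclic loess scaling it was 0.94, under the 2-fold mark.

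Surface and matrix genes thus differed in how the control arrays compared with each other. Across the 5 surface genes control replicate 1 minus control replicate 2 ran from -0.29 for Scara5 to 0.65 for Thy1. Across the brightest probe sets of the 4 matrix genes it ran from 1.51 for Mfap5 to 4.06 for Col14a1. With these, each of the 4 matrix genes was lower on control replicate 2 by more than any surface gene was. The median over all 17097 genes was -0.07. Other probe sets did not all follow, with 0.02 for Mfap5 and -0.94 for 1 of Fbln1. A further Fbln1 probe set gave 1.98, and those of Col14a1 gave 2.25 and 3.57. Against control replicate 1 alone the surface genes other than Pdgfra were higher by 1.95 to 3.11, while the matrix genes ran from -0.325 to 1.455. This split was seen after the values were known and was not tested. Most basal epithelial markers were also far lower on control replicate 2, and their part in the matrix values was not tested.

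**Figure D2:**
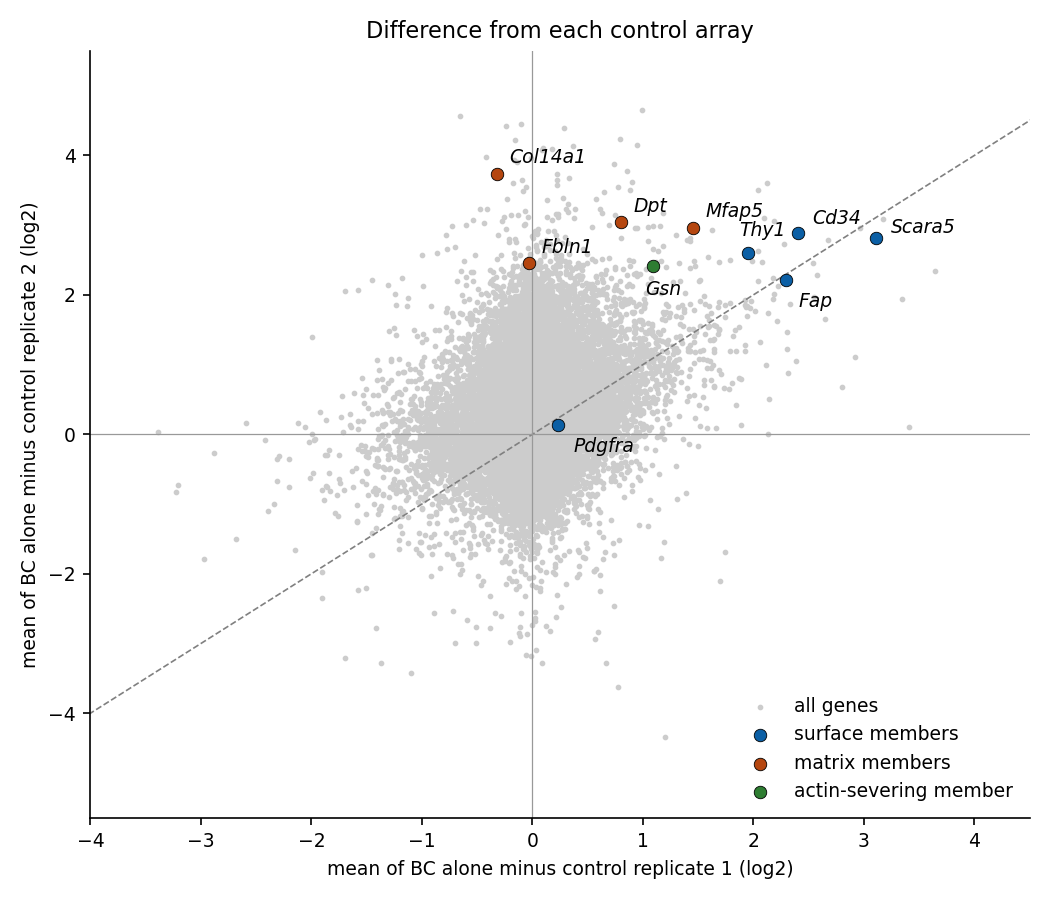
Mean of the BC alone arrays minus control replicate 1 (horizontal axis) against the same mean minus control replicate 2 (vertical axis), in log2 units, for all 17097 genes in grey and the 10 members in colour. The dashed line marks equal differences. Scara5, Cd34, Thy1 and Fap lie near it at high values, while Col14a1 and Fbln1 lie at or left of 0 on the horizontal axis and high on the vertical one. Both axes share the BC alone arrays.

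Taking the 10 genes as a set, all had a higher mean in BC alone, with a median difference of 2.07, where the median over all genes was -0.04. A gene was counted when its means differed at least 2-fold and both arrays of one group lay above both of the other. As higher in BC alone, 7 of 10 members met this, where 4.79% of all genes did, and 0 met it as lower, where 0.895% of all genes did. Without the size, both BC alone arrays lay above both controls for 7 of 10 members and for 16.8% of all genes. After cyclic loess scaling the count was 6 of 10, without Gsn, where 1.76% of all genes were so called, and after a further quantile normalization 7 of 10 and 1.95%. Since the members were chosen on this comparison, nothing is read from these counts. Against control replicate 1 alone 6 of 10 were at least 2-fold higher on the mean with both arrays above it, where 2.19% of all genes were. Those 6 were Thy1, Fap, Cd34, Scara5, Mfap5 and Gsn, and the median difference was 1.275.

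Within BC alone the arrays were not equal either. BC alone replicate 2 had the higher value for 8 of the 10 genes, with Thy1 and Pdgfra as the exceptions. The difference of replicate 2 from replicate 1 ran from -0.49 for Pdgfra to 1.41 for Fap, with a median of 0.47 where the median over all genes was 0. Leaving out BC alone replicate 2 lowered the difference of Fap to 1.55, and leaving out BC alone replicate 1 raised it to 2.96.

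Of the members 5 had more than 1 probe set, which gave 10 further readings, and these did not always follow the brightest. The second probe set of Mfap5 had 6.20 and 6.90 in BC alone, and 5.08 and 5.06 in the control. It gave a smaller difference of 1.48, with control arrays only 0.02 apart where the brighter probe set had them 1.51 apart. A further 2 Gsn probe sets gave 1.81 and 1.66, close to the brightest, but 0.97 and 0.995 against control replicate 1 alone, just under the 2-fold mark, while a pair of dimmer ones gave 0.615 and -0.145. For Col14a1 the other probe sets gave 2.285 and 1.68 and, unlike the brightest, placed both BC alone arrays above control replicate 1, by 0.28 and 0.09 at the least.

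Dimmer probe sets of Scara5, Gsn and Fbln1 turned the direction. The second Scara5 probe set had 3.53 and 3.15 in BC alone, and 3.12 and 3.94 in the control, all under the median of their arrays, and its difference was -0.19. The values of the Gsn probe set at -0.145 also lay under those medians. The other Fbln1 probe sets gave 0.34 and -0.635. The latter had 4.58 and 4.67 in BC alone, and 4.79 and 5.73 in the control, none of them under the median of its array. Another 2 probe sets name Gsn together with Mthfd2 and were not used. Thy1, Fap, Cd34, Dpt and Pdgfra each rest on 1 probe set.

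**Figure D3:**
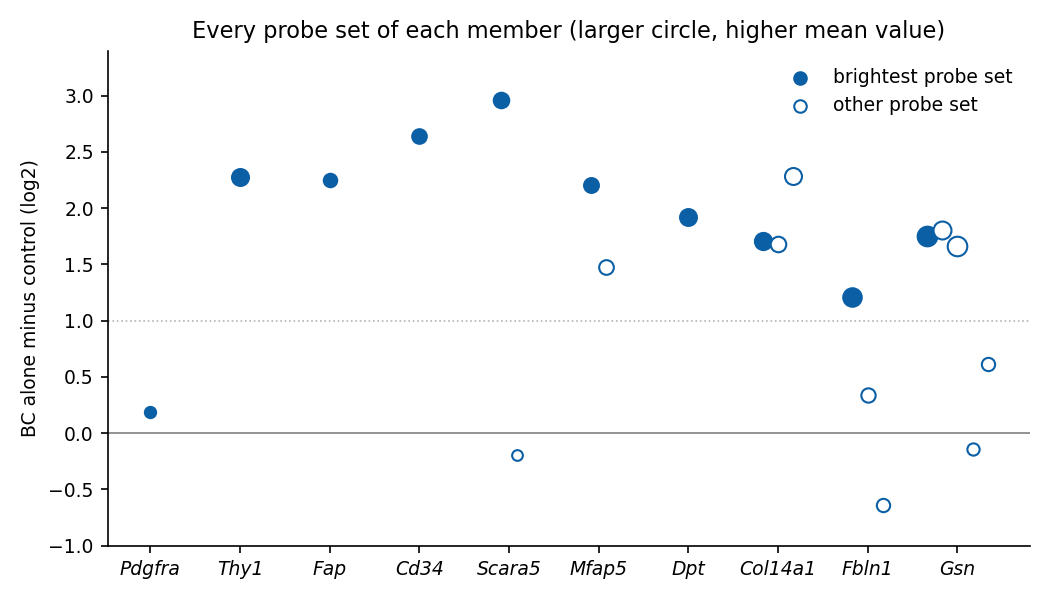
Difference between BC alone and control in log2 units for each of the 20 probe sets of the 10 genes. Filled circles are the brightest probe set of a gene, open circles the others, and a larger circle marks a higher mean value. The solid line is at 0 and the dotted line at a 2-fold difference. The open circles below 0 belong to Scara5, Fbln1 and Gsn.

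Promoters were available for 5 of the 10 genes, with 8 start sites in all, from RefSeq on GRCm38.p6. Those of Cd34, Dpt and a Gsn start are shown because both BC alone arrays lay above both controls for each of these genes. Each is the 250 bases before the annotated start, on the plus strand, with GC boxes in capitals.
Cd34, chr1:194938571-194938820: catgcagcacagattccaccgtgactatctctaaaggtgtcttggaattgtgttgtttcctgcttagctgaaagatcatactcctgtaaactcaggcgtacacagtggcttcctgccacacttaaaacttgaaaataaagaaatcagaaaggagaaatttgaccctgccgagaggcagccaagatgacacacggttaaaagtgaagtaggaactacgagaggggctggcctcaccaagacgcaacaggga
Dpt, chr1:164796413-164796662: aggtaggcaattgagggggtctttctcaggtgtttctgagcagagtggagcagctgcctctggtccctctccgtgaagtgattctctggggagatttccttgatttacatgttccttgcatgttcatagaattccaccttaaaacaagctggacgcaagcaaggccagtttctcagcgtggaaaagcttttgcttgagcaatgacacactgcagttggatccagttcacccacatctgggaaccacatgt
Gsn, chr2:35256109-35256358: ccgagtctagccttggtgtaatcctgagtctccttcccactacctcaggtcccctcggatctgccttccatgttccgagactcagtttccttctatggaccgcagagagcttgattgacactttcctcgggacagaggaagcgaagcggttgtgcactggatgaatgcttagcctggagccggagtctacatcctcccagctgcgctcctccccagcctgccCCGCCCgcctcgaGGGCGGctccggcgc

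The window of Gsn holds 2 GC boxes, and has 60.8% G and C. Those of Cd34 and Dpt hold none and have 46.4% and 48.8%. The motifs searched on both strands of each window were the GC box GGGCGG, the TATA box TATAAA, the AP-1 site TGANTCA and the TEAD site GGAATG, and the 2 GC boxes of Gsn do not overlap. A GC box was found in 4 of the 8 windows, where 32.7% of 32851 promoters of the same length hold one. Those windows belong to Gsn and Fbln1 only. Start sites of a gene are not independent, and the Fbln1 windows overlap, so no excess is read from this. The other motifs were found in 0 of 8, where 12.4%, 6.75% and 12.6% of all promoters hold a TATA box, an AP-1 site and a TEAD site. A match is only a match of letters, and its absence says nothing of the factor.

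Genes related to the members were then read, from lists made by family and function with earlier results of these arrays known. Of 86 relatives measured, 25 were at least 2-fold higher in BC alone without overlap and 1 was lower, against 4.79% and 0.895% of all genes. None passed limma's test with Benjamini-Hochberg adjustment over all genes, where the smallest adjusted p was 0.842 and the share of all genes called was 0%. The number passing was therefore 0. At an unadjusted limma p under 0.05, 20 relatives were higher and 1 lower, where 527 and 153 of all 17097 genes were. With an intensity trend in the variance model 10 of the 86 passed in limma, 9 higher and 1 lower, where 97 of all 17097 genes did. Against control replicate 1 alone 19 relatives were at least 2-fold higher with both arrays above it, where 2.19% of all genes were, and 4 were lower with both arrays below it, where 2.09% of all genes were. The 4 were Colec12, Fbn2, Col9a2 and Fmod.

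In each family read for the surface members, most genes were not past the 2-fold mark without overlap. Over all genes 4.79% were past it as higher in BC alone. Among the PDGF genes 1 of 5 was past the 2-fold mark without overlap. This was Pdgfd, a ligand, with 4.39 and 3.90 in BC alone, and 2.60 and 3.06 in the control, a difference of 1.545 against control replicate 1 alone, and the sister receptor gene Pdgfrb differed by -0.105, with overlap. Among the relatives of Fap, Dpp8 and Dpp4, which are dipeptidyl peptidases, were 2 of 6 past that mark. Dpp8 had 7.65 and 7.47 in BC alone, and 6.28 and 6.35 in the control, a difference about as large against control replicate 1 alone, at 1.28. Dpp4, also a fibroblast marker, had 4.49 and 5.41 against 3.66 and 3.76, and differed by 1.29 from control replicate 1.

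The sialomucin relatives of Cd34 gave 0 of 2, and Podxl, with the larger difference, had 8.61 and 6.45 in BC alone, and 6.44 and 7.23 in the control. Among scavenger receptors Scara3 was 1 of 4, with 6.54 and 6.99 in BC alone, and 5.65 and 4.30 in the control, and a difference of 1.115 against control replicate 1 alone. The macrophage receptors Msr1 and Marco differed by -0.44 and -0.31, and the median of the 4 was -0.38. The receptor lectin gene Colec12 differed by -0.99. Of the whole family only Scara5 and Scara3 had a higher mean in BC alone.

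Matrix relatives were divided by family, and over all genes 4.79% were at least 2-fold higher in BC alone without overlap. Of the microfibril proteins Ltbp4, which binds latent TGF-beta, was 1 of 7, with 8.89 and 9.58 in BC alone, and 7.05 and 6.17 in the control, a difference of 2.625, or 2.185 against control replicate 1 alone. Of the fibulins Efemp1 and Fbln5 were 2 of 5. Efemp1 (fibulin 3) had 5.32 and 6.13 in BC alone, and 3.05 and 2.94 in the control, and Fbln5, needed for elastic fibres, had 7.02 and 6.60 against 5.80 and 4.98. Both were higher than on control replicate 1 alone as well, by 2.675 and 1.01, where Fbln1 itself was not.

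The FACIT collagens, which like Col14a1 sit on the surface of other collagen fibrils, gave 0 of 8. Over all genes 4.79% were past the mark as higher. Col16a1, with the largest difference of them, had 9.54 and 9.28 in BC alone, and 9.39 and 6.49 in the control, which is the pattern of Col14a1, high on 3 arrays and low on control replicate 2, and it differed by 0.02 from control replicate 1 alone. The gelsolin superfamily gave 0 of 7, with a median of 0.03. Flii, with its largest difference, had 8.23 and 7.98 in BC alone, and 7.52 and 6.92 in the control.

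Proteins of the collagen fibril surface, the partners of Dpt, had the highest share of these families, 5 of 8, where 4.79% of all genes were called. Their median difference was 1.94. The 5 genes were all higher in BC alone. They were the proteoglycan genes Dcn, Lum, Bgn and Ogn and the tenascin gene Tnxb. Dcn (decorin) had 10.84 and 11.16 in BC alone, and 9.91 and 8.02 in the control, and Ogn (osteoglycin) had 6.57 and 8.34 against 5.36 and 4.35. Lum, Tnxb and Bgn differed by 2.07, 2.09 and 1.835. Bgn differed from control replicate 1 alone by 0.275, and Dcn, Lum, Ogn and Tnxb by 1.09 to 2.095. Fmod (fibromodulin), with 0.41 over both controls and overlap, was lower than control replicate 1 alone, at -1.13. Kera and Omd, of cornea and bone, differed by -0.54 and -0.235.

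**Figure D4:**
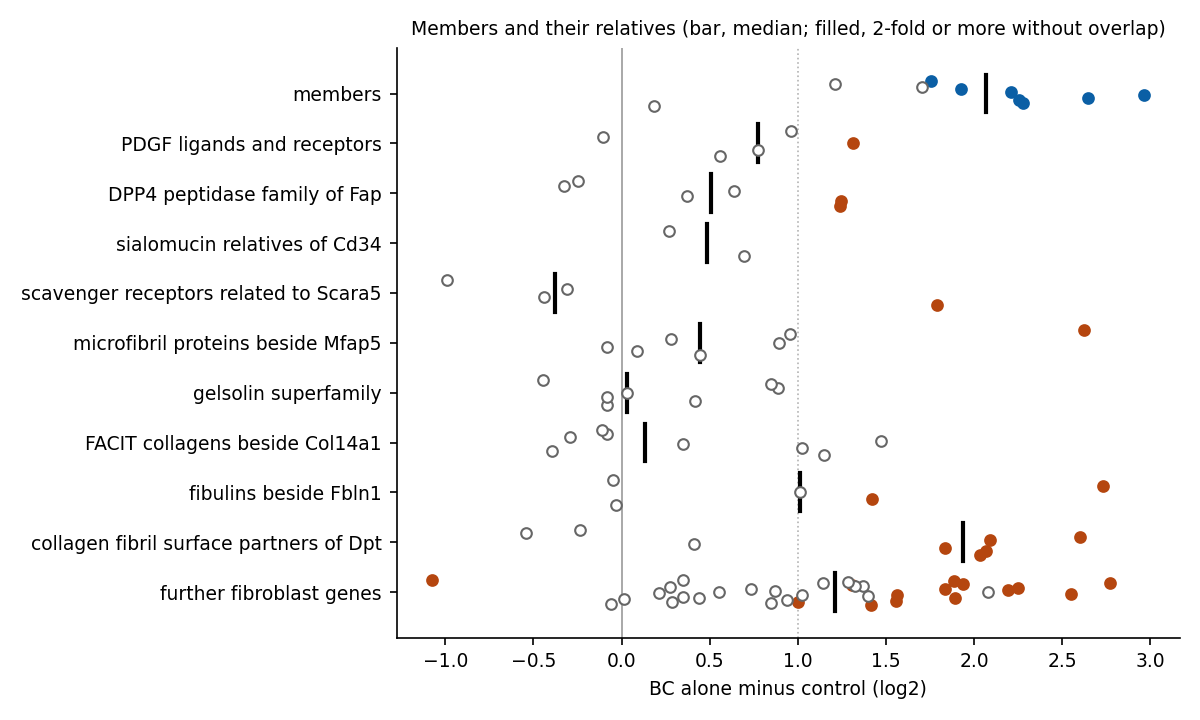
Difference between BC alone and control in log2 units for the 10 members and for each list of related genes. Each circle is a gene, filled where the difference was at least 2-fold without overlap between the groups, and the black bar is the median of the list. The medians run from -0.38 for the scavenger receptors to 2.07 for the members.

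Of 34 further fibroblast genes 32 had a higher mean in BC alone, where 7991 of all 17097 genes did, and the median difference was 1.21. Of the 34, 13 were at least 2-fold higher without overlap, where 4.79% of all genes were. They were the matrix genes Col1a1, Postn, Fstl1 and Lox, the proteases Mmp2 and Htra3, the transcription factor genes Prrx1 and Osr2, the surface genes Cd248 and Ly6c1, and Clec3b, Cxcl12 and Vim. Lox, which crosslinks collagen, had 8.43 and 7.99 in BC alone, and 6.17 and 4.71 in the control. Htra3, a secreted protease, had 5.87 and 6.67 against 4.48 and 4.39, and Osr2 differed by 1.56, and by 1.675 against control replicate 1 alone. For Htra3 and Osr2 the controls were almost level, as they were for Fap and Scara5.

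Other fibroblast genes of that list differed little or the other way. Nt5e, a surface enzyme that makes adenosine, was lower, with 4.60 and 4.54 in BC alone, and 5.22 and 6.07 in the control. Tcf21 and Meox1, fibroblast transcription factor genes, differed by 0.015 and 0.35, and Pi16, a marker of fibroblast progenitors, by 0.285 with overlap. Col1a2 read between 3.73 and 4.42 on all 4 arrays with its brightest named probe set. Like Pdgfra it gave groups that overlapped, at a difference of -0.06. Against control replicate 1 alone 7 of the 34 were at least 2-fold higher with both arrays above it, where 2.19% of all genes were. Of the 13 genes named above, 5 kept this mark, namely Prrx1, Osr2, Htra3, Lox and Cd248, and Mmp3 and Dpep1 were the other two of the 7. The remaining 8 did not keep it. Clec3b, Cxcl12 and Fstl1 differed from control replicate 1 by 0.985, 0.945 and 0.88, Ly6c1, Vim and Col1a1 by 0.745, 0.675 and 0.575, and Mmp2 and Postn by 0.365 and 0.22.

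Markers of other cell types were summed on the linear scale on each array and moved in different directions. The 10 members summed to 3057 and 4036 in BC alone, and to 2030 and 569.1 in the control. The 7 pericyte markers summed to 1130 and 685.4 in BC alone, and to 286.7 and 416.2 in the control. Of these 7, 3 were at least 2-fold higher without overlap, also against control replicate 1 alone. They were Rgs5, with 8.41 and 7.78 in BC alone, and 4.45 and 5.75 in the control, Notch3, with 9.20 and 8.08 against 7.06 and 6.94, and Mcam, which differed by 1.16. Kcnj8 and Des overlapped, at 0.53 and 0.24, and Pdgfrb and Higd1b differed by -0.105 and -0.44. The 10 endothelial markers summed to 868.0 and 743.5 against 547.5 and 553.8. Of these 10, 3 were at least 2-fold higher without overlap, namely Cdh5, Tek and Emcn, with Tek and Emcn also against control replicate 1 alone. Pecam1 overlapped, with 7.63 and 6.82 against 7.17 and 7.14. Kdr, Tie1, Erg, Cldn5, Esam and Vwf overlapped too, from -0.52 for Vwf and -0.25 for Erg to 0.605 for Esam. Over all genes 4.79% were at least 2-fold higher without overlap, and 2.19% were so against control replicate 1 alone.

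The 11 leukocyte markers had sums of 446.7 and 610.0 in BC alone, and of 836.4 and 633.8 in the control. Laptm5 and Lyz2 were at least 2-fold lower without overlap, at -1.13 and -1.055, and the T cell gene Cd3e was higher, with 4.91 and 4.47 against 3.15 and 4.15. Over all genes 0.895% were lower in this way and 4.79% higher. Against control replicate 1 alone 4 of the 11 were at least 2-fold lower with both arrays below it, where 2.09% of all genes were. They were Ptprc (CD45), Cd53, Laptm5 and Tyrobp. Lyz2 differed from control replicate 1 by -0.935 and Cd3e by 1.54. Cd68 and Cd79a also had a higher mean in BC alone, and Ptprc lay under the array median on all 4 arrays. Adipocyte markers summed to 660.9 and 722.1 against 391.8 and 379.6. Adipoq lay between 2.94 and 3.58, under the array median on each, so this sum came from Fabp4 and Lpl, which other cells also express. Mesothelial markers summed to 49.3 to 86.5 on all arrays. The part of pericytes and endothelium in the higher level of shared genes such as Cd34 and Thy1 was not tested.

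Epithelial sums followed control replicate 2 rather than the groups. The 8 basal markers summed to 7101, 5565 and 7239 on the BC alone arrays and control replicate 1, and to 572.5 on control replicate 2, and the 9 luminal markers to 5118, 5471 and 5536, and to 1658. Control replicate 2 was the lowest array for 7 of the 8 basal and 6 of the 9 luminal markers. The exceptions were Oxtr, Elf5, Kit and Cldn4. Myh11, Krt8 and Gata3 were at least 2-fold higher in BC alone without overlap, as 4.79% of all genes were. Against control replicate 1 alone they were not. Gata3 had 6.52 and 6.85 in BC alone, and 5.70 and 5.05 in the control. The 4 matrix members were lowest on control replicate 2. The sum of the 3 glial markers was also lowest there, with 122.2 against 494.1 to 675.1 elsewhere, through Sox10, which mammary epithelium also expresses. Among these markers Mbp followed the groups, with 6.55 and 6.29 in BC alone, and 5.34 and 4.87 in the control. S100b overlapped, at -0.07. No marker was listed at 0.

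**Figure D5:**
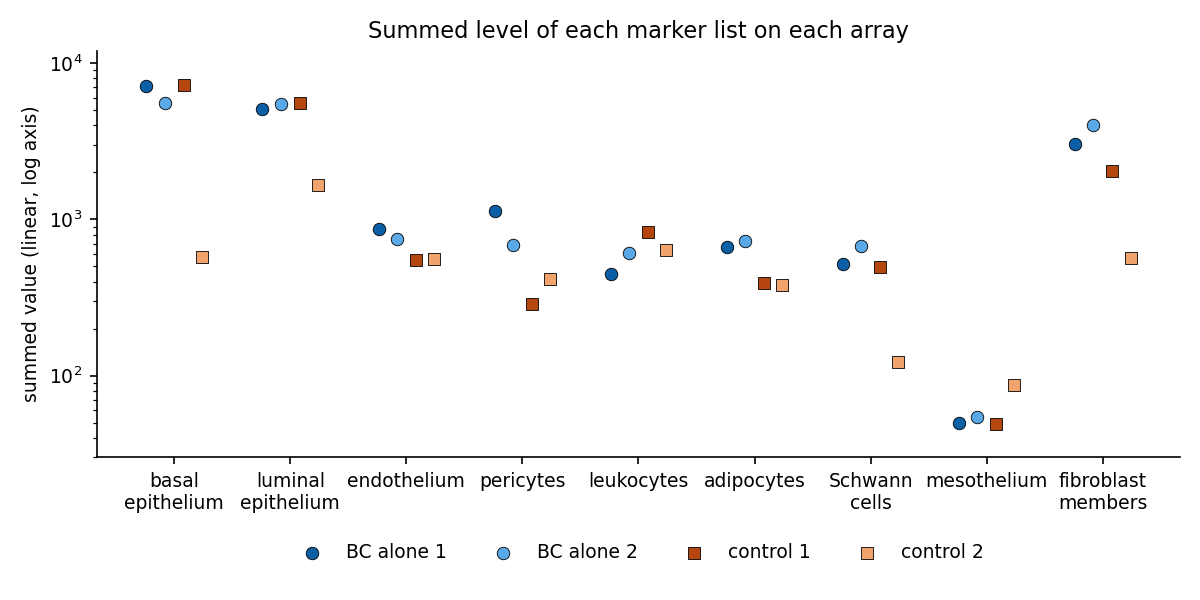
Sum of the linear values of each marker list on each of the 4 arrays, on a logarithmic axis. Circles are BC alone and squares the control arrays. The pericyte, endothelial, adipocyte and fibroblast sums are higher on both BC alone arrays than on both controls and the basal sum is 5565 to 7239 on 3 arrays and 572.5 on control replicate 2. Lists differ in their number of genes, so their heights are not compared.

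The mean profile of the 10 members, with each gene centred on its own mean, was 0.725 and 1.19 on the BC alone arrays, and -0.34 and -1.57 on the controls. Gsn and Mfap5 lay nearest to it, at Euclidean distances of 0.247 and 0.358 over the 4 arrays, and Pdgfra and Col14a1 farthest, at 2.08 and 2.01. The nearest genes outside the set were Psmb7 at 0.116, Scara3 at 0.150, Tnxb at 0.231, Nid1 at 0.236 and Loxl1 at 0.247. Psmb7 is a proteasome subunit, Nid1 a basement membrane protein and Loxl1 a lysyl oxidase of elastic fibres. The 4 arrays allow few distinct profiles, and likeness over them is a description only.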

How the data were processed

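Gene expression was measured on 1-colour mouse arrays, 2 for each group. The deposited log2 values come from the authors' processing, for which the submitters' processing notes name RMA and affy without a version. RMA subtracts background, equalises the distributions of arrays and gives 1 value per probe set. The sources used here do not say whether the 4 arrays were normalised together, and control replicate 2 has another distribution.

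Of 45141 probe sets, 28898 had 1 symbol in the platform annotation, 551 several and 15692 none. All 10 members matched the reference gene table through Entrez identifiers. Each gene was read from the probe set brightest on average, with no filter on dim values. The members and lists were chosen with earlier results of these data known. All 10 members and their probe sets are named, with relatives that differed at least 2-fold without overlap, or the one of largest difference, and the 5 nearest profiles. Medians, examples of genes that did not differ, and the surface and matrix grouping were chosen after values were seen.

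Relatives were tested in limma 3.58.1 (R 4.3.3), BC alone against control, two-sided, with Benjamini-Hochberg adjustment over 17097 genes at 0.05, and the fit was tested on simulated data. It had 2 residual degrees of freedom, and the number of arrays limits the precision. Alternatives covered each array left out, 3 scalings, the choice of probe set, a mean of at least 5, limma's trend and robust settings and a replicate block.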

Additional observations from a re-analysis of the deposited data

How the results depend on the processing

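The 10 members kept a higher mean in BC alone under each of the 3 scalings and with the mean of probe sets. Without control replicate 2 the count was 8, Col14a1 and Fbln1 being lower, and without BC alone replicate 1 it was 9, Pdgfra being lower. Their median difference ran from 1.275 without control replicate 2 to 2.71 without control replicate 1. Of 100 single values of the members under alternatives, 91 moved by less than the spread between replicates. Leaving out 1 of 2 arrays cannot move a difference by more than this spread. A gene with a single probe set cannot move with the choice of probe set. The count therefore says nothing of stability, and it includes Col14a1 moving from 1.705 to -0.325. Values below 0 were given by a dimmer probe set for Scara5 (-0.19), Gsn (-0.145) and Fbln1 (-0.635), by leaving out control replicate 2 for Col14a1 (-0.325) and Fbln1 (-0.035), and by leaving out BC alone replicate 1 for Pdgfra (-0.06). Members at least 2-fold higher without overlap numbered 6 to 9.

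The 26 relatives so called became 23 to 48 when an array was left out, with 48 without control replicate 1. Over all genes 972 differed in this way, 84.3% of them higher, and 732 to 3824 did with an array left out. The count was 614 after quantile normalization again (54.4% higher), 533 after cyclic loess (56.5%), 620 with the mean of probe sets and 1243 after median centring (92.0%). Over all genes the median was then 0.085, where it had been -0.04. The share of all genes called higher was 1.95% and 1.76% after quantile normalization and cyclic loess, where 7 and 6 of 10 members were called. The causes were not tested.

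No gene passed limma at an adjusted p of 0.05, with 680 at an unadjusted p under 0.05, 97 passed with an intensity trend, 0 with the robust setting, and 108 with the replicate block. Nothing says whether same-numbered arrays belong together. Their deviations correlated at -0.018 over genes, which cannot decide this, since the control deviations hold the distance of control replicate 2 from the other arrays. The arrays carry no detection calls, so dim values such as those of Pdgfra limit what can be read.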
